A study of Homo sapiens with 12 samples.

Results

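The small nuclear ribonucleoproteins (snRNPs) are the RNA-protein particles from which the spliceosome is built, and the genes for their proteins were compared between K562 cells with and without USP7 inhibition. Members were the protein-coding genes whose symbols begin with SNRP, SNRNP, LSM, SF3A, SF3B or PRPF followed, for the last 4 stems, by a digit, with SNRPN left out. This rule took 53 of the 60609 genes listed in the count files, of which 60295 were matched to GENCODE release 44. The symbols do not follow the particles exactly. Several snRNP proteins carry other names and were listed separately as partners (EFTUD2, TXNL4A, SNU13 and PHF5A among them). In turn, LSM12, LSM14A and LSM14B are not known snRNP subunits. Members such as PRPF18, PRPF19, PRPF38A, PRPF38B and PRPF4B join or act on the spliceosome without being core subunits.

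K562 is an established human erythroleukemia line that came from a patient with blast-phase chronic myeloid leukemia. Cells were kept for 48 h with the solvent DMSO (3 libraries) or with 10 μM FT671 (3 libraries), a compound that blocks the ubiquitin-removing enzyme USP7, and total RNA depleted of ribosomal RNA was sequenced paired end. All cells were the same unmodified line, so that the inhibitor was the only labelled difference. The study describes the replicates as independent experiments, and p-values measure the spread between these libraries. Histone ChIP samples of the same series were not analysed here.

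Total counts ran from 4555220 to 14250500 per library. Expression is given in CPM (counts scaled to a common library total, with TMM factors). By library total alone, without these factors, 3 counts, the smallest level regarded as detected, corresponded to between 0.211 and 0.659 CPM. The first principal component separated the treatments and held 69.1% of the variance. On the second, DMSO replicate 3, one of the shallower libraries, stood at −25.1 while DMSO replicates 1 and 2 stood at 12.1 and 14.9, and results are therefore also given without it. All 9 erythroid markers of K562 were detected, with a summed level of 1270 to 1309 CPM in DMSO and 1128 to 1165 CPM in FT671. Single markers moved apart within this sum, with HBZ at 32.5 to 42.8 CPM in DMSO and 126 to 143 CPM in FT671, and TAL1 at 135 to 143 CPM in DMSO and 68.7 to 76.4 CPM in FT671. Like HBZ, HBG1 and HBG2 were higher in every FT671 library, and like TAL1, GATA1, KLF1, TFRC and EPOR were lower in every one. Of the 6 T and B cell markers, CD2 and MS4A1 had no count, and the list summed to 18.7 to 23.5 CPM in DMSO and 26.5 to 32.9 CPM in FT671, nearly all of it CD3D. The 5 monocyte and granulocyte markers, with ELANE at no count, summed to 51.2 to 54.0 CPM in DMSO and 72.4 to 75.6 CPM in FT671, nearly all of it LYZ. The 6 stromal markers summed to 2.38 to 3.05 CPM in DMSO and 2.59 to 2.89 CPM in FT671, and COL3A1 and LUM had no count. The part of these markers in the results below was not tested. The transcript of USP7 itself was measured at 119, 107 and 131 CPM in the DMSO libraries and 29.3, 34.1 and 35.8 CPM in the FT671 libraries (log2 fold change −1.82 ± 0.10, adjusted p = 2.66e-08). Here and throughout, a log2 fold change is FT671 against DMSO over 3 libraries each and is given ± its standard error.

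Splicing removes introns from pre-mRNA in an ordered series of snRNP exchanges. The U1 snRNP recognizes the 5′ splice site and the U2 snRNP the branch point, after which the U4/U6.U5 tri-snRNP joins and is remodeled into the catalytic spliceosome. The U1, U2, U4 and U5 snRNAs, and their counterparts U11, U12 and U4atac of the minor spliceosome, carry a ring of Sm proteins that is loaded in the cytoplasm by the SMN complex. U6 carries a related ring of LSM2 to LSM8, while LSM1 takes the place of LSM8 in the cytoplasmic ring that helps to decap mRNA. The U7 snRNP has its own ring, with LSM10 and LSM11, and processes the 3′ ends of replication-dependent histone transcripts.

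Upon USP7 inhibition, transcripts of most snRNP proteins were higher, with SNRPF, SNRNP48 and SF3B6 at the top, while PRPF8, at the center of the spliceosome, was lower. All 53 members passed the filter on low counts, the lowest count of a member in a library being 74. At an adjusted p of 0.05 (edgeR's quasi-likelihood test, Benjamini-Hochberg adjustment over 13895 genes), 30 members rose (56.6%), 6 fell (11.3%) and 17 did not pass. Among all genes tested, 23.6% rose and 26.5% fell. The median log2 fold change of the members was 0.31, and that of all genes tested was −0.01. At the threshold of 1e-05 used in the study, SF3B6 rose and PRPF8 fell, the share of all genes being 1.79% higher and 4.13% lower. These counts at 1e-05 moved strongly with the test and with single libraries. With the DESeq2 Wald test, the tool of the study, 14 members were higher and 1 lower, beside 792 and 1155 of all 31316 genes with a count. Without DMSO replicate 3, the one that stood apart, 16 members were higher and 2 lower, beside 1106 and 1501 of all 14909 genes tested. In the edgeR test neither SF3B6 nor PRPF8 passed without FT671 replicate 2 or 3, SF3B6 did not without DMSO replicate 1, and PRPF8 did not without FT671 replicate 1. At 0.05 the count of higher members was between 26 and 30 with any 1 library left out. Over all genes tested it was between 2522 (without FT671 replicate 3) and 3830 (without DMSO replicate 3). The count of lower members was 3 without FT671 replicate 1 or replicate 2, and 6 without DMSO replicate 3, beside 3399, 3195 and 4100 of all genes.

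The groups could also be compared by their overlap. Every FT671 library lay above every DMSO library for 30 members and below for 6, as it did for 26.8% and 30.3% of all genes tested. These were not quite the members called by the test, because PRPF39 and PRPF4B were called while their groups overlapped, and SNRPA1 and PRPF3 did not overlap but were not called. Summed over all members, expression was 8894, 9256 and 8841 CPM in the DMSO libraries and 10301, 10484 and 10554 CPM in the FT671 libraries. The sum was thus higher in each FT671 library than in any DMSO library. CPM is a share of the counted RNA, and in such bulk samples a change in RNA per cell and a change in the mix of cells cannot be told apart.

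**Figure D1:**
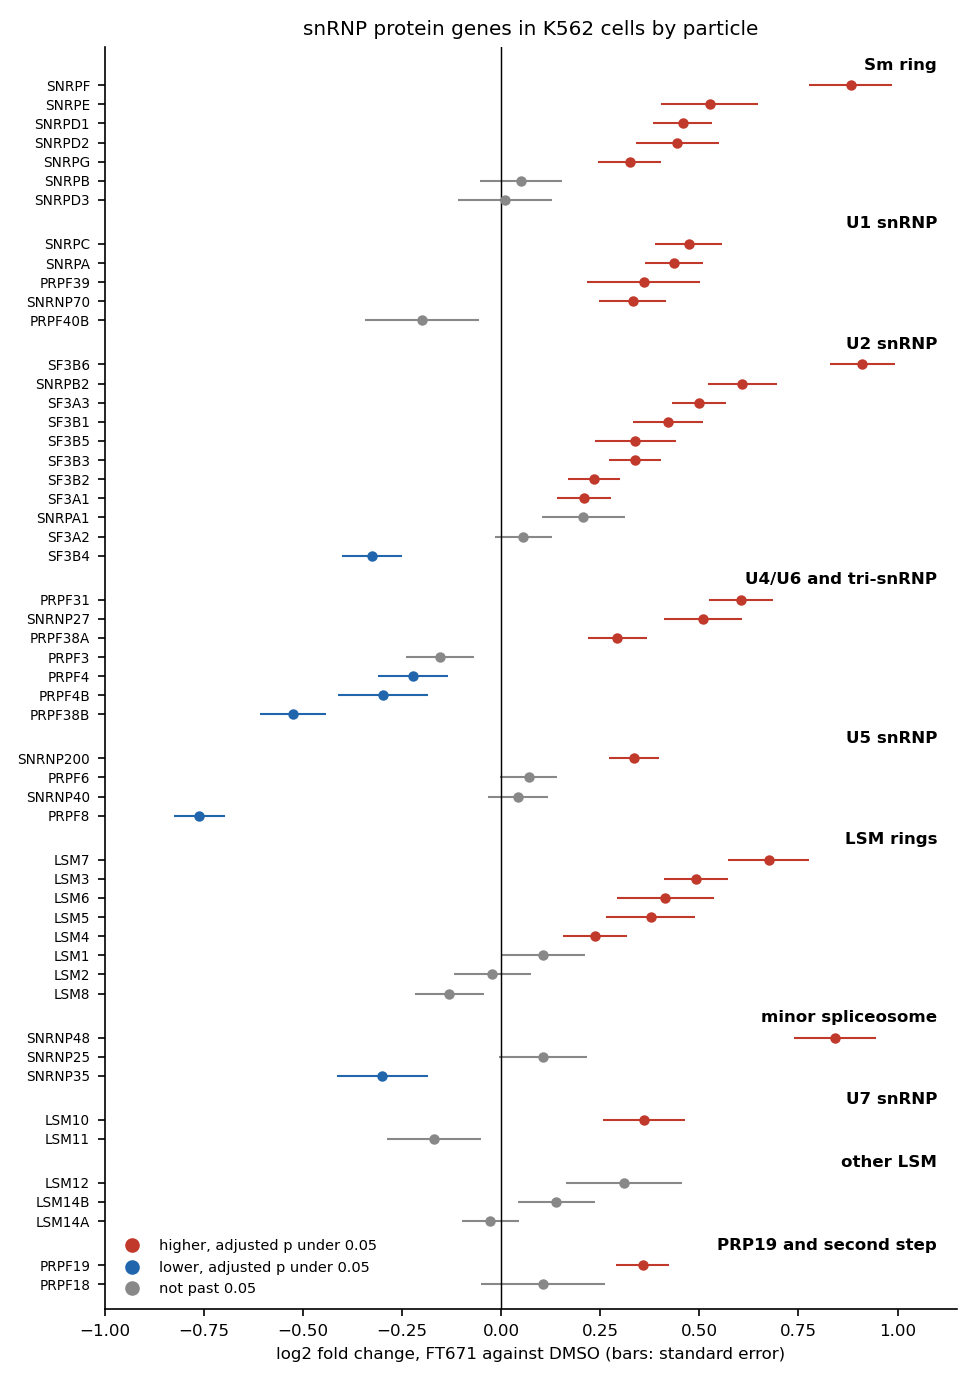
Log2 fold change of 52 of the 53 members after FT671 against DMSO (x axis; bars, standard error; 3 libraries a group), ordered by particle (y axis). Red points rose and blue points fell at an adjusted p of 0.05, and gray points did not pass; values run from −0.76 (PRPF8) to 0.91 (SF3B6), and blue points lie in the U2, U4/U6 and tri-snRNP, U5 and minor spliceosome groups.

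The promoters of the members with the 2 largest rises and the 2 largest falls are shown because these genes mark the ends of the range. Each run is the 250 bases before the start of the RefSeq transcript (GRCh38.p14), read 5′ to 3′ on the strand of the gene, with matches to the motifs described next in capitals. The windows are chr2:24076327-24076576 (minus strand) for SF3B6, chr12:95858702-95858951 (plus strand) for SNRPF, chr17:1684868-1685117 (minus strand) for PRPF8 and chr1:108692060-108692309 (plus strand) for PRPF38B.
SF3B6: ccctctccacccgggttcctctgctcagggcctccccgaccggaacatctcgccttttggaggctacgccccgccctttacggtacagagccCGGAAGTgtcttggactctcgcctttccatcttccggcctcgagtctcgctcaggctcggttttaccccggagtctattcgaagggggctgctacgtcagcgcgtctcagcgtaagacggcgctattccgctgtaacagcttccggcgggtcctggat
SNRPF: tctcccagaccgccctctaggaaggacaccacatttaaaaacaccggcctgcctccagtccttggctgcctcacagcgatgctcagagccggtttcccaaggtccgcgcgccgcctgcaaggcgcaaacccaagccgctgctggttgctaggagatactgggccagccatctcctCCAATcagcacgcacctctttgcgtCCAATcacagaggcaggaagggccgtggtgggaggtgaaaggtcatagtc
PRPF8: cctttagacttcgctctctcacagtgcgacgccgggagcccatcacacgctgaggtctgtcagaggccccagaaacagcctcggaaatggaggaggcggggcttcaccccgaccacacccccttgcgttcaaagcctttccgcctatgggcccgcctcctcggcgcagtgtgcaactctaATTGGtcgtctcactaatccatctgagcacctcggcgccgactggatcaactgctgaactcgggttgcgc
PRPF38B: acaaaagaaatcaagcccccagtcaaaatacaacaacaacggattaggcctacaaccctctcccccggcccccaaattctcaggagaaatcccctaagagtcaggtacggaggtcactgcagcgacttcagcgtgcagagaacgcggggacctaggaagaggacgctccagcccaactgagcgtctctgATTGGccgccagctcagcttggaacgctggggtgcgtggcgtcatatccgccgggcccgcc
All 4 windows were rich in G and C, with 62.4% in SF3B6, 60.4% in SNRPF, 61.2% in PRPF8 and 58.8% in PRPF38B. The window of SF3B6 held an ETS motif read on the opposite strand, that of SNRPF 2 CCAAT boxes, and those of PRPF8 and PRPF38B a CCAAT box on the opposite strand each.

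RefSeq windows reaching from 250 bases before to 50 bases after the start were at hand for 43 members (51 windows) and were searched for 8 motifs on both strands. The letters were ACTTCCG for ETS factors, GCGCATGC for NRF1, CACGTG for the E-box, TGACGTCA for the cAMP response element, AAGATGGC for YY1, ACTACAA for ZNF143, CCAAT for the CCAAT box and TATAAA for the TATA box, and none of them contains another. The ETS letters were found in 16 of 43 members (37.2%), in 16.3% of the 9863 tested genes with a window and in 8.18% of all 27305 genes with one. They were present in 11 of the 25 members that rose, 1 of the 4 that fell and 4 of the 14 that did not pass. The CCAAT box was found in 20 members (46.5%) and in 43.3% of tested genes. For YY1 the letters were found in 5 members (11.6%) and in 6.80% of tested genes. These were 3 of the 25 members that rose, 2 of the 4 that fell and 0 of the 14 that did not pass. PRPF38B was among them, with a match that reaches past the 250 bases printed above. The TATA box was found in SNRPC alone among the 43. NRF1, the E-box, the cAMP response element and ZNF143 were each present in 3 members or fewer. A match says only that the letters are in the window.

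Sm proteins form the ring shared by the spliceosomal snRNPs, and transcripts of 5 of the 7 rose (median log2 fold change 0.44). SNRPF was measured at 77.00, 66.7 and 66.2 CPM in the DMSO libraries and 115, 120.3 and 150.1 CPM in the FT671 libraries (log2 fold change 0.88 ± 0.10, adjusted p = 1.21e-05; GENCODE gene ENSG00000139343, chr12:95858952-95903828). All 3 FT671 libraries were above all DMSO libraries, and replicate 3 was the highest of them. SNRPE was at 41.3, 45.2 and 50.6 CPM in the DMSO libraries and 52.9, 75.6 and 66.4 CPM in the FT671 libraries (log2 fold change 0.53 ± 0.12, adjusted p = 0.00271). SNRPD1 was at 109, 117 and 118 CPM in the DMSO libraries and 149.7, 156 and 165 CPM in the FT671 libraries (log2 fold change 0.46 ± 0.07, adjusted p = 1.77e-04). In both genes the groups were separate, although the lowest FT671 library of SNRPE was only just above its highest DMSO library. SNRPD2 was at 373, 418 and 292 CPM in the DMSO libraries and 527, 482 and 471 CPM in the FT671 libraries (log2 fold change 0.44 ± 0.11, adjusted p = 0.00304). SNRPG was at 129.7, 136 and 123 CPM in the DMSO libraries and 152, 178 and 158 CPM in the FT671 libraries (log2 fold change 0.32 ± 0.08, adjusted p = 0.00377). Both rose, again without overlap.

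The other ring members, SNRPB and SNRPD3, did not pass. SNRPB, whose transcript gives both the B and the B′ protein, was at 328, 336 and 244 CPM in the DMSO libraries and 332, 319.9 and 294 CPM in the FT671 libraries (log2 fold change 0.05 ± 0.10, 95% interval −0.15 to 0.25, adjusted p = 0.708). Its DMSO replicate 3 was the lowest of the 6 libraries. SNRPD3 was at 30.5, 33.8 and 39.2 CPM in the DMSO libraries and 29.8, 35.5 and 36.6 CPM in the FT671 libraries (log2 fold change 0.01 ± 0.12, 95% interval −0.22 to 0.24, adjusted p = 0.954). In both genes the groups overlapped. Summed over the ring, expression was 1089, 1153 and 933 CPM in DMSO and 1359, 1367 and 1340 CPM in FT671, so that DMSO replicate 3 was also the lowest in the sum. Without it the median log2 fold change of the ring was 0.31. Per kb of canonical transcript, SNRPB made up 19.7 ± 0.996% (SD, n = 3) of the summed level of the ring in DMSO and 15.4 ± 0.782% in FT671. SNRPF made up 11.02 ± 1.38% and 15.1 ± 2.37% by the same measure, which depends on the annotated transcript lengths.

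The U1 snRNP group held 5 members that rose and 1 that did not pass (median log2 fold change 0.40). SNRPC (the U1 C protein, which contacts the 5′ splice site) was at 193, 179 and 155 CPM in the DMSO libraries and 231, 247 and 255 CPM in the FT671 libraries (log2 fold change 0.47 ± 0.08, adjusted p = 3.99e-04). All FT671 libraries were above all DMSO libraries. The log2 fold change was 0.44 ± 0.07 for SNRPA (the U1 A protein) and 0.33 ± 0.08 for SNRNP70 (U1-70K), with adjusted p of 2.16e-04 and 0.00485. PRPF39, an alternative splicing factor of U1, was called on overlapping groups (log2 fold change 0.36 ± 0.14, adjusted p = 0.0478). Its call held under 10 of the 18 alternatives, and was lost with the DESeq2 Wald test (adjusted p = 0.114). It did not pass without DMSO replicate 1 (adjusted p = 0.176), without DMSO replicate 2 (adjusted p = 0.184), without FT671 replicate 2 (adjusted p = 0.0891) or without FT671 replicate 3 (adjusted p = 0.232). PRPF40B had a log2 fold change of −0.20 ± 0.14 and an adjusted p of 0.269. Without DMSO replicate 3 PRPF40B was lower (adjusted p = 0.0380). Of the exons of PRPF40B, 28.0% overlap FMNL3 on the opposite strand, and of those of PRPF39, 13.3% overlap FKBP3. FMNL3 had a log2 fold change of −0.41 (edgeR adjusted p = 0.00158) and FKBP3 one of 0.36 (edgeR adjusted p = 0.00567). Over the 6 libraries FMNL3 held 2976 counts against 893 of PRPF40B, and FKBP3 2523 against 1179 of PRPF39. The strand setting of the counting is not given in the sources used here, so that reads of these neighbors cannot be told apart from those of the members.

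The U2 snRNP was the largest group, and 8 of its 11 members rose while SF3B4 fell (median log2 fold change 0.34). SF3B6 (p14), the SF3b subunit that lies next to the branch point adenosine, was at 124, 131 and 145 CPM in the DMSO libraries and 229, 253 and 265 CPM in the FT671 libraries (log2 fold change 0.91 ± 0.08, adjusted p = 1.09e-06; GENCODE gene ENSG00000115128, chr2:24067586-24076373). Its level in FT671 was 1.88 times that in DMSO and the groups were far apart, the largest rise among the members. SF3B4 (SAP49), which contacts the pre-mRNA upstream of the branch point, was at 117, 126 and 120.3 CPM in the DMSO libraries and 91.3, 95.6 and 102 CPM in the FT671 libraries (log2 fold change −0.33 ± 0.08, adjusted p = 0.00291). All FT671 libraries of SF3B4 were below all DMSO libraries, and its call held under all 18 alternatives. The other SF3b subunits among the members rose, with log2 fold changes of 0.42 ± 0.09 for SF3B1, the subunit that clamps the branch helix and is often mutated in myeloid neoplasms, 0.34 ± 0.10 for SF3B5, 0.34 ± 0.07 for SF3B3 and 0.23 ± 0.06 for SF3B2. PHF5A, an SF3b subunit counted with the partners, did not pass (0.24 ± 0.11, adjusted p = 0.0699).

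Within the SF3a part of U2, SF3A3 rose by 0.50 ± 0.07 on the log2 scale (adjusted p = 4.34e-05) and SF3A1 by 0.21 ± 0.07 (adjusted p = 0.0195). SF3A2 did not pass (0.06 ± 0.07, adjusted p = 0.545). Of the proteins bound to the U2 snRNA stem loop, SNRPB2 (the U2 B″ protein) rose by 0.61 ± 0.09 (adjusted p = 6.18e-05). Its partner SNRPA1 (the U2 A′ protein) did not pass (0.21 ± 0.11, adjusted p = 0.117), although its groups did not overlap. The call of SF3A1 was lost without DMSO replicate 1 (adjusted p = 0.0956), FT671 replicate 2 (adjusted p = 0.0629) or FT671 replicate 3 (adjusted p = 0.0856). That of SF3B5 was lost without FT671 replicate 1 (adjusted p = 0.0713). The log2 ratio of SF3B4 to SF3B2 counts was −2.11, −2.10 and −2.10 in the DMSO libraries and −2.72, −2.69 and −2.59 in the FT671 libraries, a pair chosen after its values were seen and therefore given without a test.

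**Figure D2:**
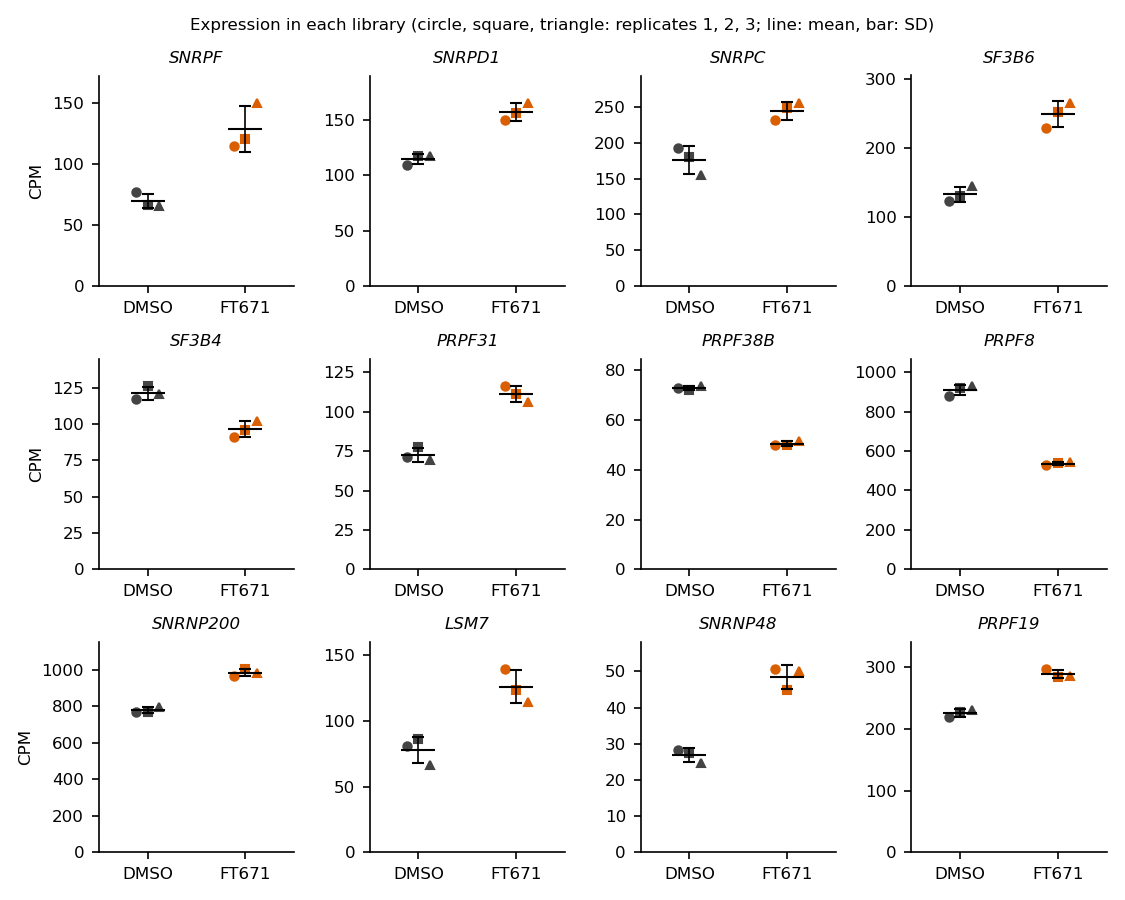
CPM (y axes, each from 0) of 12 members in each library, with DMSO in gray and FT671 in orange (x axes); circles, squares and triangles are replicates 1, 2 and 3, horizontal lines the means and bars the SD. SF3B4, PRPF38B and PRPF8 lie lower in FT671 than in DMSO, with PRPF8 at 909.6 CPM on average in DMSO and 536 CPM in FT671, and the other 9 genes lie higher, with no overlap of the groups in any of the 12.

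Members of the U4/U6 and tri-snRNP group were divided, with 3 that rose, 3 that fell and 1 that did not pass (median log2 fold change −0.15). Those that fell were PRPF4 and, outside the core subunits, PRPF38B and PRPF4B. PRPF31, which binds the U4 snRNA and holds the tri-snRNP together, was at 71.2, 77.9 and 69.5 CPM in the DMSO libraries and 116, 111 and 106 CPM in the FT671 libraries (log2 fold change 0.61 ± 0.08, adjusted p = 3.19e-05). PRPF38B, a paralog of PRPF38A, was at 72.6, 71.9 and 73.6 CPM in the DMSO libraries and 49.97, 49.8 and 51.5 CPM in the FT671 libraries (log2 fold change −0.52 ± 0.08, adjusted p = 1.33e-04, GENCODE gene ENSG00000134186, chr1:108692310-108702928). The FT671 libraries of PRPF38B lay within a narrow range well below those of DMSO. PRPF38A moved the other way, rising by 0.29 ± 0.07 (adjusted p = 0.00474), and so did SNRNP27 (0.51 ± 0.10, adjusted p = 7.02e-04), a small protein of the tri-snRNP. The log2 ratio of PRPF38B to PRPF38A counts was −0.65 ± 0.06 (SD, n = 3) in DMSO and −1.47 ± 0.08 in FT671, again a pair chosen after its values were seen.

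PRPF3 and PRPF4 bind each other and the U4/U6 duplex. PRPF4 fell by −0.22 ± 0.09 (adjusted p = 0.0475), and PRPF3 did not pass (−0.15 ± 0.08, adjusted p = 0.146). PRPF4 kept its call under 4 of the 18 alternatives, and lost it with the DESeq2 Wald test (adjusted p = 0.123) and the length correction (adjusted p = 0.110). The call was also lost with each library left out except DMSO replicate 3, the adjusted p then lying between 0.0593 (without DMSO replicate 1) and 0.189 (without DMSO replicate 2). The values were 0.0674, 0.158 and 0.136 without FT671 replicates 1, 2 and 3. PRPF4B, a kinase that phosphorylates tri-snRNP proteins, was called lower on overlapping groups (−0.30 ± 0.11, adjusted p = 0.0414). Its call held under 13 of the 18 alternatives, and was lost with the length correction (adjusted p = 0.187) and without DMSO replicate 3 (adjusted p = 0.0787), FT671 replicate 1 (adjusted p = 0.153) or FT671 replicate 2 (adjusted p = 0.113). Exons of PRPF31 overlap those of PRPF31-AS1 on the opposite strand over 22.0% of their length. That transcript had a log2 fold change of 0.57 (edgeR adjusted p = 5.13e-04) and held 2402 counts over all libraries, against 4585 of PRPF31. What share of PRPF31 counts came from it was not tested. Exons of SNRNP27 overlap MXD1 on the same strand over 12.5%, with a log2 fold change of 0.05 for MXD1.

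The U5 snRNP supplies the scaffold of the catalytic spliceosome, and its largest subunits changed in opposite directions. PRPF8, which cradles the catalytic RNA core, was at 878, 921 and 929 CPM in the DMSO libraries and 528, 537 and 544 CPM in the FT671 libraries (log2 fold change −0.76 ± 0.06, adjusted p = 6.17e-07; GENCODE gene ENSG00000174231, chr17:1650629-1684867). Its level in FT671 was 0.590 times that in DMSO, with little spread within either group, the largest fall among the members. SNRNP200 (Brr2), the helicase that unwinds U4/U6, was at 771, 771 and 797 CPM in the DMSO libraries and 964, 1004 and 984 CPM in the FT671 libraries (log2 fold change 0.34 ± 0.06, adjusted p = 6.14e-04). All FT671 libraries were above all DMSO libraries in SNRNP200. PRPF6, which joins U5 to U4/U6 (0.07 ± 0.07, adjusted p = 0.442), and SNRNP40 (0.04 ± 0.08, adjusted p = 0.660) did not pass, with 95% intervals of −0.07 to 0.21 and −0.11 to 0.19.

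The ratio of PRPF8 to SNRNP200 counts within a library does not depend on scaling between libraries. On the log2 scale it was 0.19, 0.26 and 0.22 in the DMSO libraries and −0.87, −0.90 and −0.85 in the FT671 libraries. The linear ratio, as the antilog of the mean, was 1.17 in DMSO and 0.545 in FT671, so that PRPF8 had more counts than SNRNP200 in each DMSO library and fewer in each FT671 library. The difference of −1.10 stayed between −1.11 and −1.08 with any 1 library left out. The pair was chosen after its values were seen, and no test is given. Both transcripts are long (7280 bases for PRPF8 and 7194 bases for SNRNP200). EFTUD2 (Snu114), the GTPase that sits beside PRPF8 in U5, belonged to the partner genes and was at 253, 263 and 246 CPM in the DMSO libraries and 376, 374 and 371 CPM in the FT671 libraries (log2 fold change 0.55 ± 0.07, adjusted p = 1.16e-05). All its FT671 libraries lay above all its DMSO libraries.

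**Figure D3:**
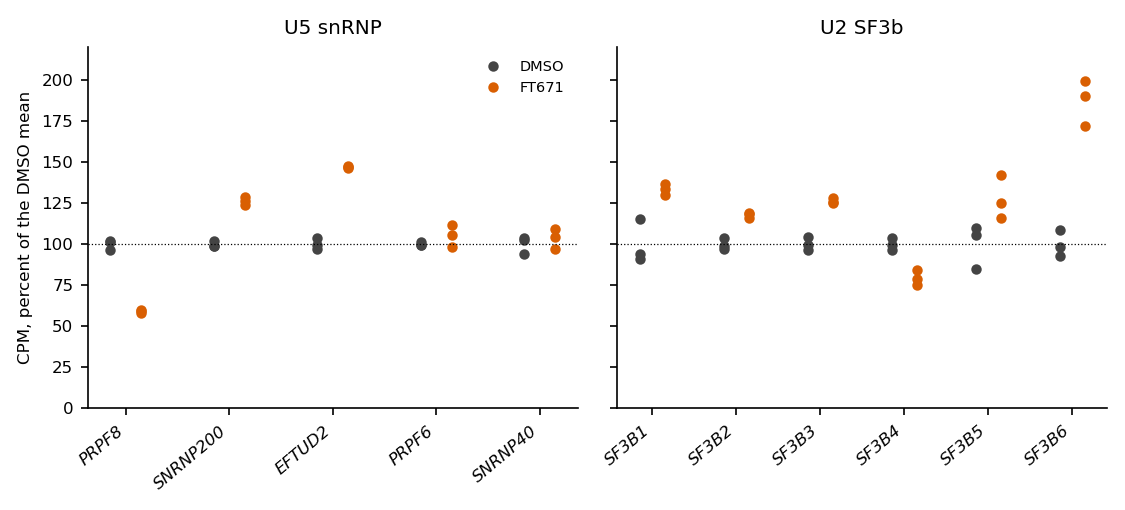
CPM of each library as a percentage of the DMSO mean of the same gene (y axis) for 5 U5 genes and the 6 SF3b genes among the members (x axis), with DMSO in gray and FT671 in orange; the dotted line marks the DMSO mean. PRPF8 and SF3B4 lie below the DMSO libraries, PRPF6 and SNRNP40 overlap them, and the other 7 genes lie above.

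Of the 8 LSM proteins of the U6 and decapping rings, 5 rose and 3 did not pass (median log2 fold change 0.31). LSM7 was at 81.1, 85.8 and 66.4 CPM in the DMSO libraries and 139, 123 and 114 CPM in the FT671 libraries (log2 fold change 0.67 ± 0.10, adjusted p = 9.57e-05). LSM3 (0.49 ± 0.08), LSM6 (0.41 ± 0.12), LSM5 (0.38 ± 0.11) and LSM4 (0.24 ± 0.08), subunits of both rings like LSM7, also rose. LSM2, another shared subunit, did not pass (−0.02 ± 0.10, adjusted p = 0.868). LSM8, found in the nuclear U6 ring, was at 117, 144 and 139.7 CPM in the DMSO libraries and 122, 124 and 119 CPM in the FT671 libraries (log2 fold change −0.13 ± 0.09, adjusted p = 0.228). LSM1, found in the cytoplasmic ring, was at 41.5, 41.8 and 39.4 CPM in the DMSO libraries and 37.98, 45.1 and 47.99 CPM in the FT671 libraries (log2 fold change 0.11 ± 0.10, adjusted p = 0.419). The groups overlapped in both genes. The log2 ratio of LSM8 to LSM1 counts was 1.70 ± 0.18 (SD, n = 3) in DMSO and 1.48 ± 0.19 in FT671, a difference of −0.22 (exact permutation test, two-sided, p = 0.2, where 3 against 3 libraries cannot go below 0.1).

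Several calls in the LSM rings changed when 1 library was left out. Without DMSO replicate 1, LSM6 no longer passed (adjusted p = 0.0515) while LSM8 was called lower (adjusted p = 0.0493). LSM4 was lost without FT671 replicate 1 (adjusted p = 0.0826) or replicate 2 (adjusted p = 0.0801). LSM5 was lost without FT671 replicate 2 (adjusted p = 0.0749) or replicate 3 (adjusted p = 0.0516). LSM7 and LSM3 kept their calls under all 18 alternatives. Exons of LSM1 overlap BAG4 and a long noncoding RNA on the opposite strand over 11.8% and 26.1% of their length. Over the 6 libraries BAG4 held 5472 counts against 2226 of LSM1, with a log2 fold change of 0.29 (edgeR adjusted p = 0.0214). The noncoding RNA held 1070 counts, with a log2 fold change of 0.002. What share of LSM1 counts, and so of the LSM8 to LSM1 ratio, came from these neighbors was not tested.

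Transcripts of the minor spliceosome proteins were also divided. SNRNP48 (U11-48K), which recognizes the 5′ splice site of minor introns, was at 28.3, 27.6 and 24.6 CPM in the DMSO libraries and 50.6, 44.7 and 50.05 CPM in the FT671 libraries (log2 fold change 0.84 ± 0.10, adjusted p = 1.52e-05), with separate groups. SNRNP35 (U11-35K) was at 27.6, 32.9 and 30.3 CPM in the DMSO libraries and 26.2, 25.6 and 22.5 CPM in the FT671 libraries (log2 fold change −0.30 ± 0.11, adjusted p = 0.0425). Its FT671 libraries were all below its DMSO libraries, but by little. Exons of SNRNP35 overlap RILPL1 on the opposite strand over 43.96% of their length, and RILPL1 had a log2 fold change of −0.50 (edgeR adjusted p = 0.00253). The share of SNRNP35 counts that came from RILPL1 was not tested. SNRNP35 kept its call under 7 of the 18 alternatives, and lost it with the DESeq2 Wald test (adjusted p = 0.129) and the length correction (adjusted p = 0.0909). The call was also lost without DMSO replicate 2 (adjusted p = 0.175) and without FT671 replicates 1 (adjusted p = 0.0514), 2 (adjusted p = 0.0719) or 3 (adjusted p = 0.218). SNRNP25 (U11/U12-25K) did not pass (0.10 ± 0.11, adjusted p = 0.456).

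Of the ring proteins particular to U7, LSM10 was at 69.1, 69.98 and 52.5 CPM in the DMSO libraries and 83.3, 83.5 and 81.95 CPM in the FT671 libraries (log2 fold change 0.36 ± 0.10, adjusted p = 0.00961). The FT671 libraries of LSM10 were above those of DMSO. LSM11 did not pass (−0.17 ± 0.12, adjusted p = 0.252). PRPF19, the ubiquitin ligase of the PRP19 complex that stabilizes the active spliceosome, was at 219, 228 and 229.6 CPM in the DMSO libraries and 296, 283 and 285 CPM in the FT671 libraries (log2 fold change 0.36 ± 0.07, adjusted p = 5.14e-04). PRPF18, a factor of the second catalytic step, did not pass (0.11 ± 0.16, adjusted p = 0.599). Of the LSM proteins outside the rings, LSM12 (0.31 ± 0.15), LSM14B (0.14 ± 0.10) and LSM14A (−0.03 ± 0.07), the latter pair being proteins of cytoplasmic P-bodies, did not pass. Without FT671 replicate 1, LSM12 was called higher (adjusted p = 0.0120). LSM12 was also the member with the largest share of pseudogene counts, 5.30% of its own.

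Some properties that the rule did not use were compared with the changes. Across the 53 members, Spearman's rho of the log2 fold change was −0.25 with the length of the canonical transcript, −0.34 with the length of all merged exons and −0.19 with GC content. Over the 13872 tested genes with these values, rho was −0.21, −0.15 and −0.08. These are descriptions over genes of the same 6 libraries, not over independent replicates. With each library corrected for gene length, 30 members were still higher but 3 lower, namely PRPF8, PRPF38B and SF3B4, beside 3848 higher and 3325 lower of all 13895 genes (3276 and 3687 without the correction). Per kb of merged exons, mean levels in DMSO ran from 1.35 CPM per kb for PRPF18 to 251 CPM per kb for SNRPD2. The log2 fold change had a rho of 0.19 with the DMSO level per kb of transcript over the members, and of 0.0053 over the 13872 tested genes. Pseudogenes named after members numbered 74, for 19 members, and held 5.30% of the member's counts or less.

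The proteins that assemble snRNPs and work beside them were counted in 7 lists of 95 genes written from their known roles, of which 94 were tested. Of these, 32 rose (34.0%) and 17 fell (18.1%), beside 23.6% and 26.5% of all genes tested, with a median log2 fold change of 0.14. Among the 21 genes of assembly and import, 10 rose, SMN1 and SMN2 among them, and 4 fell (median 0.27). GEMIN4, a subunit of the SMN complex, was at 38.7, 38.1 and 31.2 CPM in the DMSO libraries and 16.2, 15.2 and 13.3 CPM in the FT671 libraries (log2 fold change −1.31 ± 0.13, adjusted p = 1.96e-06). NCBP2, the cap-binding subunit that escorts snRNAs out of the nucleus, was at 71.3, 77.6 and 82.3 CPM in the DMSO libraries and 132, 135 and 134 CPM in the FT671 libraries (log2 fold change 0.80 ± 0.08, adjusted p = 2.21e-06). GEMIN4 fell and NCBP2 rose without overlap of the groups. The counts of SMN1 and SMN2 were low, at most 32 in a library, and cannot be assigned with certainty because the copies are nearly identical.

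The 18 tested partners of U1 and U2 included 9 that rose and 4 that fell (median 0.26). U2AF2, which binds the polypyrimidine tract, was at 140.0, 139 and 129.6 CPM in the DMSO libraries and 274, 238 and 259 CPM in the FT671 libraries (log2 fold change 0.91 ± 0.08, adjusted p = 5.02e-07). U2SURP, a U2-associated protein with an SR-like domain, was at 85.3, 74.3 and 106 CPM in the DMSO libraries and 188, 189 and 197 CPM in the FT671 libraries (log2 fold change 1.12 ± 0.11, adjusted p = 1.56e-06). In both, all FT671 libraries were above all DMSO libraries. U2AF1, the partner of U2AF2, held at most 5 counts in a library and was not tested; hg38 carries a near-identical copy of this gene. Of the 14 U4/U6.U5 partners, 6 rose and 2 fell (median 0.12), SNU13 of the U4 stem loop rising by 0.59 ± 0.08 (adjusted p = 3.06e-05) beside EFTUD2. Of 20 partners in the PRP19 complex and the second step, 6 rose (30%, beside 23.6% of all genes tested), with a median of 0.12. None of them fell by the edgeR test, by DESeq2 or at an unadjusted p of 0.05, where 26.5% of all genes fell by the edgeR test at 0.05. The rises were led by the cyclophilin PPIE (0.62 ± 0.08, adjusted p = 2.31e-05) and the second-step factor SLU7 (0.43 ± 0.09, adjusted p = 0.00171).

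The remaining lists, of 6, 8 and 7 genes, are too short for their shares to be read as a result. In the minor spliceosome list 16.7% rose and 0% fell. For the decapping list these shares were 0% and 50%, and for the U7 list 0% and 42.9%. Among all genes tested 23.6% rose and 26.5% fell. Of 6 minor spliceosome partners, RNPC3 (U11/U12-65K) rose by 0.71 ± 0.16 (adjusted p = 0.00258) and the others did not pass (median 0.03), 1 being lower at an unadjusted p of 0.05. Of 8 decapping partners, which work with the LSM1 ring, 4 fell and the other 4 did not pass (median −0.20), none being higher at an unadjusted p of 0.05 or by DESeq2. EDC4, the scaffold of the decapping complex, was at 84.9, 82.4 and 82.6 CPM in the DMSO libraries and 50.4, 38.2 and 43.3 CPM in the FT671 libraries (log2 fold change −0.93 ± 0.10, adjusted p = 4.80e-06), and DCP1A, the activator of the decapping enzyme, was at 78.7, 79.7 and 95.8 CPM in the DMSO libraries and 49.1, 46.7 and 52.7 CPM in the FT671 libraries (log2 fold change −0.76 ± 0.10, adjusted p = 2.67e-05). Both were lower in each FT671 library than in any DMSO library. Of 7 partners in U7-dependent histone 3′ end processing, 3 fell and 4 did not pass (median −0.08), with none higher at an unadjusted p of 0.05 or by DESeq2. The falls included SLBP, which binds the histone stem loop (−0.43 ± 0.08, adjusted p = 6.01e-04), and CSTF2 (−0.43 ± 0.11, adjusted p = 0.00521).

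**Figure D4:**
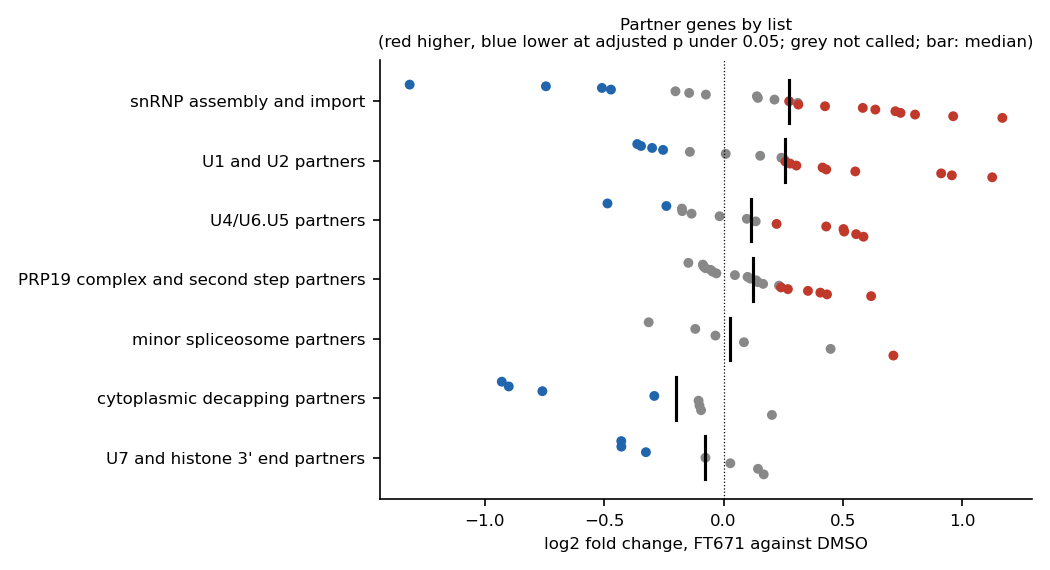
Log2 fold change after FT671 (x axis) of the 94 tested partner genes in 7 lists (y axis; points spread vertically within a list for legibility). Red points rose, blue points fell and gray points did not pass an adjusted p of 0.05, and bars mark the medians, from 0.27 for assembly and import to −0.20 for decapping, where no point is red.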

How the data were processed

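The authors sequenced total RNA of K562 cells after ribosomal RNA depletion (KAPA RiboErase) on a NextSeq500, mapped the reads by two-pass STAR alignment against hg38, and deposited unnormalized read counts per gene for 6 libraries. The STAR version, annotation release and strand setting are not given in the sources used here. Genes were named by GENCODE release 44; the 314 unmatched genes held 0.0609% of the counts.

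From the counts, edgeR 4.0.16 (R 4.3.3; filterByExpr, TMM, quasi-likelihood F test, two-sided, no covariate) compared FT671 with DMSO over 13895 genes, with Benjamini-Hochberg adjustment at 0.05 and, as in the study, 1e-05. Standard errors are the log2 fold change divided by the square root of F, and 95% intervals are 1.96 times these. This normal quantile makes the intervals narrower than the F test allows. That of SNRPA1, for example, was 0.00069 to 0.41 while its unadjusted p by the F test was 0.0695. The code was tested on simulated counts. No 2 libraries were copies (chi-square per degree of freedom 2.07 to 8.73). Alternatives were DESeq2 1.42.0, other scalings and filters, length and GC corrections, the replicate block, thinning and leaving out each library.

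Members and lists were chosen with earlier results of these data known. Library values are given for the largest rise and fall past 0.05 in each group, members past 1e-05, LSM1, LSM8 and the Sm ring, and of each partner list the 2 genes with the smallest adjusted p past 0.05 are named. SMN1, SMN2, U2AF1, overlapping neighbors, ratios other than LSM8 to LSM1 and genes whose call changed were chosen after values were seen. Promoter windows are RefSeq's. The values of 1 member, kept in all counts and medians, are not reported here.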

Additional observations from a re-analysis of the deposited data

How the results depend on the processing

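Over 53 members and 18 alternatives, 892 calls kept their side of the 0.05 threshold, 50 lost the call, 12 gained it, and no called direction turned. 26 members kept their call throughout, 23 higher and 3 lower. The count of members higher at 0.05 was between 26 and 36. It was 26 without a filter, beside 3049 of all 31316 genes. With the GC correction and the replicate block it was 36, beside 4030 of all 13895 genes (3276 in the main fit). The count of lower members was 3 with the length correction, with or without the replicate block, and 3 to 6 with 1 library left out. At 1e-05, where the main counts were 1 higher and 1 lower, 2 members were higher with DESeq2 size factors, 14 with the DESeq2 Wald test, 10 without a filter, 8 with the length correction, 10 with the GC correction, 2 after thinning and 0 to 16 with 1 library left out; 2 were lower without a filter and 0 to 2 with 1 library left out. The cause was not tested. The median of the Sm ring was 0.34 with the length correction and 0.31 to 0.48 with 1 library left out, that of U1 0.47 with the GC correction, and that of U7 0.16. The median of U5 was 0.023 with library totals, 0.017 without a filter, 0.11 with the GC correction and 0.019 to 0.080 with 1 library left out, and that of the minor spliceosome 0.0015 to 0.18. The medians of the other groups and the LSM8 to LSM1 difference kept their direction but not always their size; for example, U4/U6 and tri-snRNP moved from −0.15 to −0.067 with the length correction, other LSM from 0.14 to 0.072 without DMSO replicate 3, PRP19 and second step from 0.23 to 0.13 without DMSO replicate 1, and LSM8 to LSM1 from −0.22 to −0.13 without FT671 replicate 3. The 32 higher and 17 lower partner genes stayed within 1.5 times. Over all genes, 249 were higher and 574 lower at 1e-05, against 792 and 1155 with the DESeq2 Wald test, 977 and 1757 without a filter, 518 and 621 with the length correction, 961 and 1066 with the GC correction, 34 and 73 without FT671 replicate 3, and 1106 and 1501 without DMSO replicate 3.

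Whether equal replicate numbers pair the libraries was not settled. Deviations from the group means correlated by 0.115, −0.0605 and 0.140 for numbers 1, 2 and 3. Such deviations cancel out within a group of 3 libraries, so that these correlations depend on each other and cannot decide it. With the replicate block, 30 members were higher and 5 lower at 0.05 (3374 and 3761 of all genes). At 1e-05 there were 5 and 1 (402 and 753 of all genes). The block with the length correction gave 12 higher at 1e-05 (875 and 878 of all genes higher and lower). At 0.05 it gave 3 lower (3402 of all genes), with a median of 0.35 for the Sm ring. The block with the GC correction gave 11 higher at 1e-05 (930 and 966 of all genes) and medians of 0.46 for U1, 0.12 for U5 and 0.16 for U7. The paired LSM8 to LSM1 difference was −0.22 (exact sign-flip permutation test, p = 0.5). DMSO replicates 1 and 3 each correlated best with the FT671 replicate of the same number. DMSO replicate 2 correlated best with FT671 replicate 1 (0.125).

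The standard errors of members were 0.064 to 0.156 on the log2 scale and hold both counting error and variation between libraries. With every library thinned to 4555220 counts, 29 members were higher and 4 lower at 0.05, beside 2852 and 3212 of all 12727 genes tested.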

Other observations

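The RNAs of the snRNPs were hardly captured. Of 1901 snRNA genes listed, 250 had a count and 5 could be tested, and together they held between 0.00294% and 0.00337% of a library. RNU2-27P, annotated as a pseudogene of U2, had 22, 19 and 10 counts in the DMSO libraries and 20, 37 and 92 in the FT671 libraries (log2 fold change 2.02, edgeR adjusted p = 3.07e-05). RNVU1-28, a variant U1 gene, had 158, 152 and 48 counts in DMSO and 25, 26 and 73 in FT671 (log2 fold change −0.996, edgeR adjusted p = 9.14e-04). The adjusted p was 0.0636 for RNVU1-31, 0.771 for RNU4-5P and 0.113 for RNU6-2. These genes have many near-identical copies, so that the assignment of their reads is uncertain.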
